A study of Mus musculus with 10 samples.

Results

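A set of 10 genes that mark tissue macrophages was followed in RNA sequencing libraries from the knee cartilage cap of 10 mice. The genes are Adgre1, Cd68, C1qa, C1qb, C1qc, Mrc1, Vcam1, Cd163, Clec10a and Spic. They were chosen by name for their known roles and not by a measured value, though with earlier results of these data known. All 10 were found among the 35705 genes of the table, and all 10 were among the 13841 that averaged 1 TPM or more and entered the test. Levels are in TPM, an abundance corrected for transcript length and scaled to the same total in every library. Differences are given as Mir324-null minus wild-type on the log2(TPM + 1) scale, which understates changes of genes with low values.

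The study compared 5 wild-type mice with 5 mice that carry a null allele of Mir324, a microRNA gene, in work on the part this microRNA plays in bone. Each library came from the medial knee cap of 1 mouse, and neither group was treated. The labels gave no age, sex, strain, litter or way in which the allele was made, and they named the cell type as chondrocyte. Of 8 chondrocyte markers, 6 averaged 1 TPM or more. Comp, the most abundant, lay between 141 and 487 TPM over the 10 mice, and Acan between 60.2 and 287 TPM. The other 2, Matn3 and Col9a1, stayed under 1 TPM in every library. Haemoglobin genes, which red cell precursors express, held 11.2% to 26.1% of the TPM of a library. The p-values set a difference against the spread between these mice. Whether the mice of a group shared a litter is not stated, so they may not be independent. In such bulk tissue, fewer macrophages and less RNA per macrophage cannot be told apart. The depth behind each value is unknown, since the table holds no read counts.

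Tissue macrophages engulf dead cells and debris and are found in synovium, bone and marrow. In marrow, some of them sit at the centre of islands of maturing red cells, which they hold through adhesion molecules and whose expelled nuclei they swallow, and they return the iron of worn-out red cells. Other macrophage proteins recognise sugars, free haemoglobin or particles coated with complement.

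The 10 genes spanned a wide range of levels, led by complement C1q. C1qb averaged 198 ± 29.3 TPM, C1qc 194 ± 26.1 TPM and C1qa 189 ± 26.4 TPM (SD, n = 10 mice). Cd68 followed at 141 ± 23.2 TPM and Vcam1 at 115 ± 20.0 TPM (SD, n = 10). Adgre1 averaged 29.6 ± 4.53 TPM, Mrc1 29.0 ± 4.33 TPM, Spic 17.9 ± 4.42 TPM, Clec10a 12.7 ± 2.87 TPM and Cd163 8.01 ± 3.46 TPM (SD, n = 10). In this order the values of neighbours overlapped between mice for every pair but Vcam1 and Adgre1. That step lay between Vcam1, at 68.4 TPM or more in every mouse, and Adgre1, at 37.3 TPM or less. C1qb stood above 96.1% of the genes tested by mean level, and Cd163 above 36.2%.

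**Figure D1:**
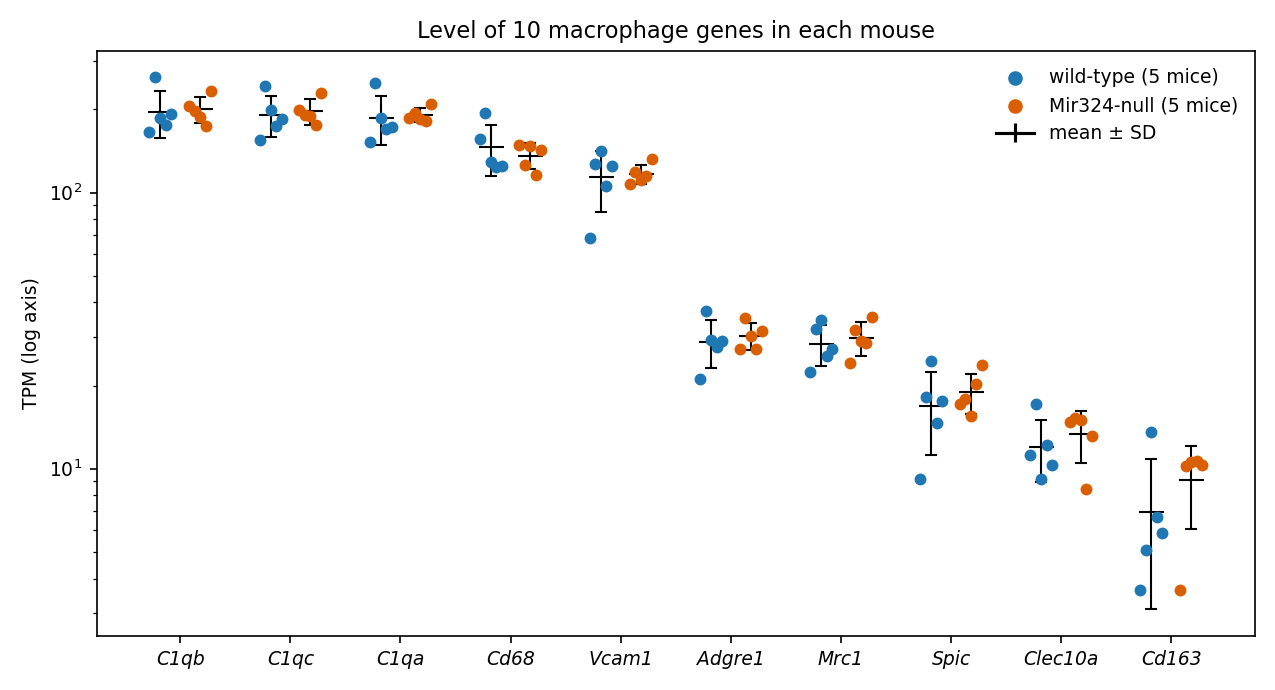
Level of each of the 10 macrophage genes in each mouse, in TPM on a log axis, with 5 wild-type and 5 Mir324-null mice as points and mean ± SD in black. The groups overlap for each gene, and wild-type replicate 1 is the lowest of the 10 mice for 8 of the 10 genes.

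None of the 10 genes differed between genotypes beyond the spread between mice. In limma with Benjamini-Hochberg adjustment over all genes tested, 0 of 10 had an adjusted p under 0.05, against 0% of all 13841 genes. The count with an unadjusted p below 0.05 was likewise 0 of 10, against 11.6% of all genes (592 above and 1011 below wild-type). That split depends on scaling: it was 875 higher and 888 lower with median ratio scaling, 884 and 929 with quantile normalization, and 1229 and 590 when libraries were rescaled without haemoglobin genes. Of the 50 values in null mice (10 genes in 5 mice), 47 lay inside the wild-type range of their gene. These values are not independent, since wild-type replicate 1 was the lowest mouse for 8 of the 10 genes. The same share over all genes tested is not given here, so the count is a description only. The estimates ran from -0.082 for Cd68 to 0.38 for Cd163, with a median of 0.077 beside -0.045 over all genes tested, and 9 were above 0 (also 9 with median ratio or quantile scaling, and 10 without haemoglobin genes). Without wild-type replicate 1, whose values are described further on, 3 of the 10 estimates were above 0 and their median was -0.011. Adjusted p-values lay between 0.729 and 0.948 in limma, and two-sided exact permutation p-values of single genes between 0.325 and 0.817, where the smallest this design allows is 0.00794.

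**Figure D2:**
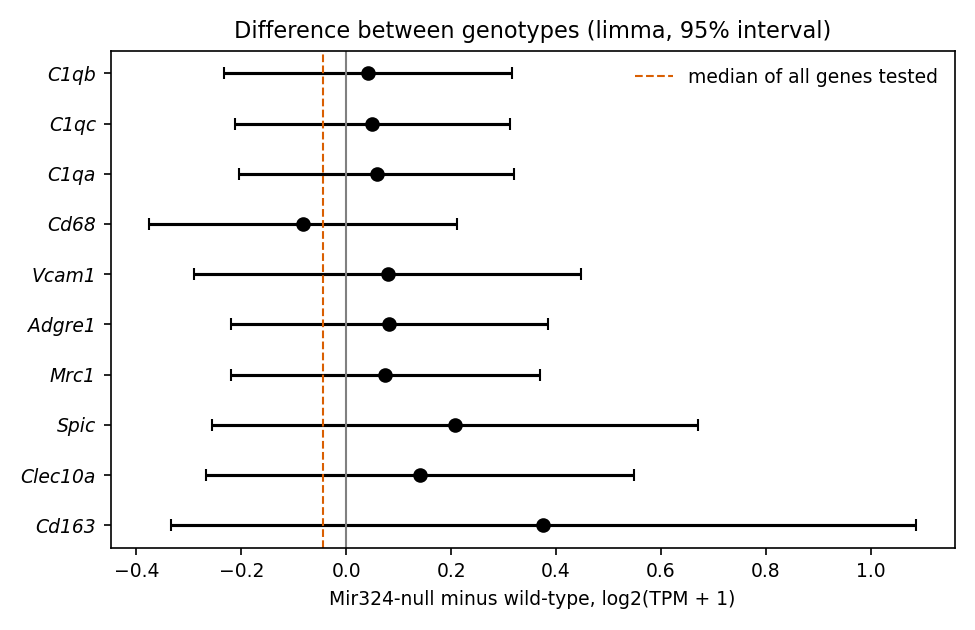
Difference between genotypes for each of the 10 genes on the log2(TPM + 1) scale, with the limma estimate as a point, its 95% interval as a bar, and the median of all genes tested, -0.045, as a dashed line. Every interval includes 0, and that of Cd163 is the widest, from -0.34 to 1.09.

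C1qa, C1qb and C1qc encode the A, B and C chains of C1q, the recognition part of the classical complement pathway, which is made largely by macrophages and holds the chains in equal number. In GRCm38 the genes lie next to each other on the minus strand of chromosome 4, C1qb (ENSMUSG00000036905) from 136880129 to 136886187, C1qc (ENSMUSG00000036896) from 136889804 to 136893065 and C1qa (ENSMUSG00000036887) from 136895917 to 136898803. The stretches before the starts of C1qb and C1qc are shown because these genes had like levels and moved together. They come from RefSeq promoters (GRCm38.p6), cut where either RefSeq or GENCODE M21 places the start, at chr4:136886201-136886450 and chr4:136893066-136893164, minus strand, and are written 5′ to 3′. Capitals mark the letters GAGGAA, a core that PU.1 and other ETS factors of myeloid cells can bind, and TGCTGA, a part of the element bound by Maf factors, on either strand. The motifs do not overlap each other here.
C1qb: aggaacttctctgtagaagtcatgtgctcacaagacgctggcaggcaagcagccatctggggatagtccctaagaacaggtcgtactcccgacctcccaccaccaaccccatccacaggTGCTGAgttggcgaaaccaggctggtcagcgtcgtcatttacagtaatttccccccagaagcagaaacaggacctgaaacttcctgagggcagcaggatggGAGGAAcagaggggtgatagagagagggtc
C1qc: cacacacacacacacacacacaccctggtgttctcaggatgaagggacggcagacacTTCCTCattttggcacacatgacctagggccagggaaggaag
The counts that follow use the whole 250 bases before the RefSeq start, without that cut. GAGGAA was found on either strand in 4 of the 6 promoters that the table held for the 10 genes (C1qb, C1qc, Cd68 and Mrc1), and in 23.3% of all 32851 promoters. TGCTGA was found in 2 of the 6, C1qb and Spic, and in 16.1% of all promoters. The RefSeq start of Spic lies inside the GENCODE gene, so that its window does not lie before the GENCODE start. A match of letters is a description and not a binding site.

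C1qa measured 152, 250.2, 186, 169.9 and 173 TPM in wild-type replicates 1 to 5. In null replicates 1 to 5 it measured 187, 195, 185, 181 and 209 TPM. All 5 null values lay inside the wild-type range, whose ends were set by wild-type replicates 1 and 2. C1qb ranged from 166 to 261 TPM in wild-type and from 174 to 234 TPM in null mice. C1qc ranged from 155 to 243 TPM in wild-type and from 175 to 230.2 TPM in null mice. The difference was 0.058 for C1qa (SE 0.120), 0.041 for C1qb (SE 0.126) and 0.050 for C1qc (SE 0.120), and each turned below 0 without wild-type replicate 1. The 95% interval of C1qa ran from 0.868-fold to 1.25-fold of wild-type.

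The chains stayed level with each other in each mouse. As a share of their summed TPM, C1qa held 32.5% ± 0.953, C1qb 34.1% ± 0.895 and C1qc 33.4% ± 0.779 (SD, n = 10), and the lowest share of any chain in any mouse was 31.1%. The summed level moved far more, from 474 TPM in wild-type replicate 1 to 755 TPM in wild-type replicate 2. It averaged 574 ± 108 TPM in the wild-type and 588 ± 53.1 TPM in the null group (SD, n = 5).

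**Figure D3:**
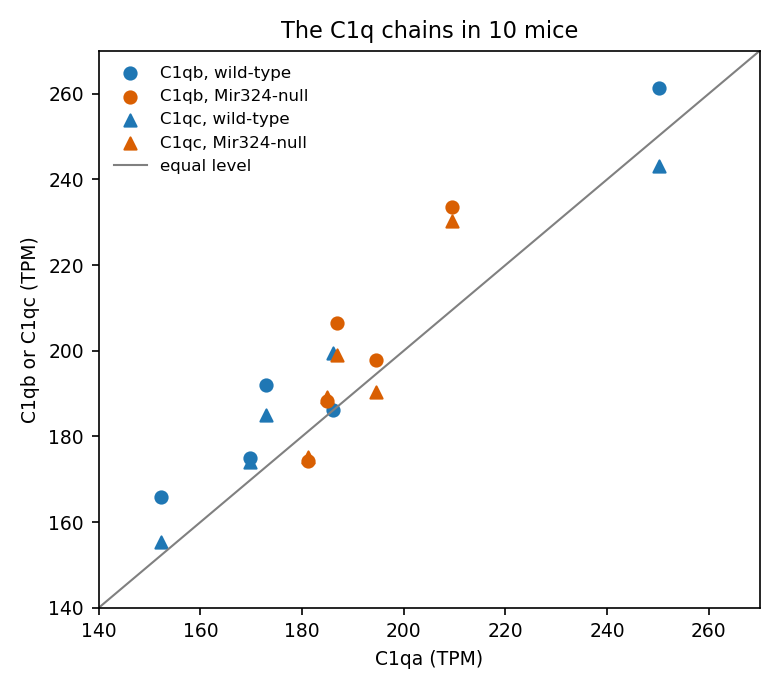
TPM of C1qb (circles) and C1qc (triangles) against C1qa in 5 wild-type and 5 Mir324-null mice, with a line of equal level. The points follow the line from wild-type replicate 1, at 152 TPM of C1qa, to wild-type replicate 2, at 250.2 TPM.

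Adgre1 and Cd68 are the general macrophage markers of the set. Adgre1 (ENSMUSG00000004730, chromosome 17, 57358691 to 57483527) encodes an adhesion receptor of the cell surface that is widely used to recognise mouse macrophages. It measured 21.1, 37.3, 29.3, 27.5 and 29.1 TPM in wild-type replicates 1 to 5, and 27.1, 35.2, 30.3, 27.2 and 31.6 TPM in null replicates 1 to 5. The null mice lay inside the wild-type range, and the difference was 0.082 (SE 0.138, exact permutation p = 0.587). Of 5 annotated transcripts, Adgre1-202 held 94.9% of the gene's TPM on average.

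Cd68 (ENSMUSG00000018774, chromosome 11, 69664213 to 69666153) encodes a glycoprotein of lysosomes that is abundant in macrophages but is also found in osteoclasts and other myeloid cells. It measured 157, 194, 129, 123 and 125 TPM in wild-type replicates 1 to 5, and 148, 126, 148, 115 and 143 TPM in null replicates 1 to 5. Only null replicate 4 lay outside the wild-type range, below it. The difference was -0.082 (SE 0.134, exact permutation p = 0.643), the single estimate below 0, and it was 0.027 without wild-type replicate 2 and 0.0074 when libraries were rescaled without haemoglobin genes. The non-coding transcript Cd68-203 varied more than the gene, from 2.50% to 26.6% of its TPM, while the coding transcript Cd68-201 held 85.5% on average.

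Vcam1, Spic and Cd163 are known from macrophages that tend red cells or clear haemoglobin. Vcam1 (ENSMUSG00000027962, chromosome 3, 116109949 to 116129688) encodes an adhesion molecule that binds integrins on blood cell precursors, and endothelial and stromal cells make it too. It measured 68.4, 127, 142, 106 and 125 TPM in wild-type replicates 1 to 5, and 107, 119, 111, 115 and 132 TPM in null replicates 1 to 5. Wild-type replicate 1 stood well below the other 9 mice, all of which were at 106 TPM or more. The difference was 0.079 (SE 0.169, exact permutation p = 0.817), and it was -0.091 without wild-type replicate 1. The transcript Vcam1-201 held between 94.6% and 96.2% of the gene's TPM in each mouse.

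Spic (ENSMUSG00000004359, chromosome 10, 88674772 to 88685015) encodes an ETS transcription factor that haem induces and that red pulp and marrow macrophages need for iron recycling. It measured 9.21, 18.2, 24.5, 14.6 and 17.5 TPM in wild-type replicates 1 to 5, and 17.2, 17.9, 15.5, 20.3 and 23.7 TPM in null replicates 1 to 5. The wild-type mice alone spanned the whole range, with replicate 1 lowest and replicate 3 highest. The difference was 0.21 (SE 0.212, exact permutation p = 0.460), and it was 0.022 without wild-type replicate 1. On average 74.0% of the gene's TPM came from Spic-201, while Spic-202, annotated as a target of nonsense-mediated decay, reached 41.7% in its highest mouse.

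Cd163 (ENSMUSG00000008845, chromosome 6, 124304656 to 124330527) encodes the receptor that takes up haemoglobin bound to haptoglobin. It measured 3.63, 5.07, 13.5, 6.69 and 5.85 TPM in wild-type replicates 1 to 5, and 3.65, 10.2, 10.6, 10.6 and 10.3 TPM in null replicates 1 to 5. Apart from null replicate 1, the null mice lay close together and above every wild-type mouse except replicate 3. The difference of 0.38 (SE 0.325, exact permutation p = 0.325) had the widest interval of the set, from 0.793-fold to 2.12-fold. It was 0.64 without null replicate 1, where the unadjusted limma p was below 0.05 and the limma adjusted p was 0.603. It was 0.62 without wild-type replicate 3 (limma adjusted p = 0.366) and 0.21 without wild-type replicate 1. A transcript with a retained intron, Cd163-203, held 25.0% of the gene's TPM on average.

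Mrc1 and Clec10a encode lectins that bind sugars on particles and proteins. Mrc1 (ENSMUSG00000026712, chromosome 2, 14229392 to 14332057), the mannose receptor, is also made by some endothelial cells. It measured 22.5, 31.9, 34.4, 25.6 and 27.1 TPM in wild-type replicates 1 to 5, and 24.1, 31.8, 29.1, 28.5 and 35.4 TPM in null replicates 1 to 5. Null replicate 5 was the only null mouse outside the wild-type range, above it, and the difference was 0.075 (SE 0.135, exact permutation p = 0.595). The retained-intron transcript Mrc1-202 held 34.1% of the gene's TPM at its highest and 8.02% on average.

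Clec10a (ENSMUSG00000000318, chromosome 11, 70156197 to 70170834), a lectin for galactose and related sugars, is made by macrophages and some dendritic cells. It measured 11.2, 17.1, 9.21, 12.2 and 10.4 TPM in wild-type replicates 1 to 5, and 14.8, 15.2, 15.1, 8.43 and 13.1 TPM in null replicates 1 to 5. Null replicate 4 was below all other mice, while the other 4 null mice lay above 4 of the 5 wild-type mice. The difference was 0.14 (SE 0.187, exact permutation p = 0.500), and it was 0.29 without null replicate 4. Of its 10 annotated transcripts in the table, Clec10a-206 was listed at 0 in every mouse, while Clec10a-202 held 44.7% and Clec10a-201 held 25.0% on average.

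A pair of the genes lies near the Mir324 gene. Mir324 is at 70012043 to 70012131 on chromosome 11, Clec10a starts 144 kb beyond it and Cd68 ends 346 kb before it. Between Mir324 and Clec10a lies Mgl2 (70130329 to 70137550), a close relative of Clec10a, so that reads may be shared between them and the levels of both are uncertain. Mgl2 averaged 11.3 ± 1.98 TPM in the wild-type and 11.2 ± 3.65 TPM in the null group (SD, n = 5, difference -0.054, SE 0.214, exact permutation p = 0.889). On the other side of Clec10a, Slc16a11 averaged 0.475 ± 0.377 and 0.569 ± 0.355 TPM (SD, n = 5) and did not reach the filter. Neither Clec10a nor Cd68 differed between genotypes beyond the spread between mice, as given above.

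The spread between mice differed among the genes and was widest for Cd163 and Spic. The within-genotype SD of log2(TPM + 1) was 0.198 for C1qc, 0.199 for C1qa, 0.211 for C1qb, 0.220 for Mrc1, 0.228 for Adgre1 and 0.229 for Cd68, beside a median of 0.240 over all genes tested. It was 0.300 for Vcam1, 0.322 for Clec10a, 0.379 for Spic and 0.598 for Cd163. Set against genes within 1.5-fold of its own level, each of the 10 was more variable than most. Cd163 exceeded 95.2% of such genes, Spic 87.1%, Vcam1 81.3%, Clec10a 74.9% and Cd68 69.9%, and the other 5 lay between 54.5% for Mrc1 and 62.4% for C1qb. The highest mouse exceeded the lowest 1.57-fold for C1qc and 3.74-fold for Cd163.

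Individual mice stood apart in a shared way. Wild-type replicate 1 had the lowest value of the 10 mice for 8 of the 10 genes, all but Cd68 and Clec10a, although it was lowest for only 10.0% of all genes tested. Its Vcam1 lay 0.72 below the mean of the 10 mice on the log2 scale, its Spic 0.85 and its Cd163 0.86 below. Wild-type replicate 2 was highest for 6 of the 10, namely Adgre1, Cd68, the C1q chains and Clec10a. In null replicate 5 all 10 genes lay above their mean over the 10 mice, while this mouse was lowest for 30.4% of all genes tested. The shares of all genes highest in wild-type replicate 2, or above their mean in null replicate 5, are not given here.

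**Figure D4:**
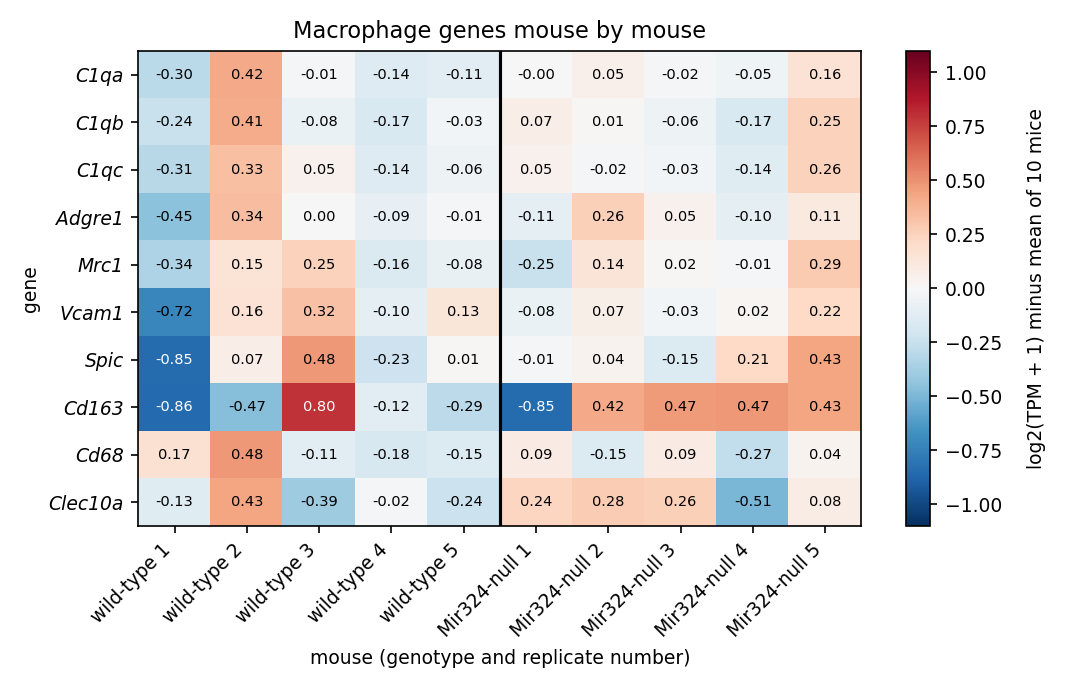
Difference of log2(TPM + 1) from the mean of the 10 mice for each of the 10 genes (rows) in each mouse (columns), with wild-type mice left of the black line. Wild-type replicate 1 is low for all but Cd68, wild-type replicate 2 is high for all but Cd163, and null replicate 5 is high throughout.

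Some measures of other cell types were at an extreme in wild-type replicate 1 and null replicate 5. Wild-type replicate 1 had the least haemoglobin, 11.2% of TPM, and the most Acan (287 TPM), Phex (42.6 TPM) and Prg4 (5075 TPM), genes of cartilage, osteocytes and the joint surface. Synovial fibroblast genes went both ways there, with Thy1 highest (26.7 TPM) and Pi16 lowest (27.4 TPM). Of the cartilage genes, Comp was highest there too (487 TPM), while Cnmd stood at 7.59 TPM, below its highest value of 12.8 TPM. Wild-type replicate 5 had nearly as little haemoglobin, 11.7% of TPM, but was lowest for 0 of the macrophage genes. Null replicate 5 had the most haemoglobin, 26.1% of TPM. All genes of a library share a fixed total, and the part that tissue make-up plays in the macrophage genes was not tested.

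The C1q chains moved together from mouse to mouse, and so did Vcam1, Spic and Mrc1. Of 45 pairs compared over the 10 mice on log2(TPM + 1), 7 passed adjustment by both Pearson and Spearman correlation in permutation tests. The share of such pairs among all genes tested is not given here, so the count is a description only. Some genes outside the set came as close to Vcam1 and C1qa, as given below. C1qb and C1qc gave r = 0.956 (permutation p = 2.0e-05, adjusted 0.00090) and rho = 0.855 (permutation p = 0.00275, adjusted 0.0247), with r = 0.867 without the 2 mice farthest from the median of C1qb. Vcam1 and Spic gave r = 0.940 (permutation p = 0.00031, adjusted 0.00349) and rho = 0.903 (permutation p = 0.00077, adjusted 0.0168), with r = 0.740 without the 2 farthest mice and 0.838 without wild-type replicate 1. Vcam1 also moved with Mrc1, at r = 0.823 (permutation p = 0.00040, adjusted 0.00360) and rho = 0.891 (permutation p = 0.00123, adjusted 0.0168), and r was 0.809 without the 2 mice farthest from the median of Mrc1. The other 4 pairs were C1qa with C1qb (r = 0.932), C1qa with C1qc (0.941), Mrc1 with Spic (0.824) and Adgre1 with Mrc1 (0.761). Without wild-type replicate 1 these were 0.925, 0.915, 0.745 and 0.613. Without the 2 mice farthest from the median of the gene named first they were 0.827, 0.865, 0.650 and 0.647. Adgre1 with Mrc1 passed narrowly by Pearson correlation (permutation p = 0.00909, adjusted 0.0454). Adgre1 with C1qa, at r = 0.867 (permutation p = 0.00320, adjusted 0.0206) and rho = 0.758 (permutation p = 0.0156, adjusted 0.0704), passed by Pearson correlation alone, and r was 0.612 without the 2 mice farthest from the median of Adgre1. After centring each genotype on its own mean, r was 0.956 for C1qb with C1qc, 0.949 for Vcam1 with Spic and 0.819 for Mrc1 with Vcam1. Cd68 and Cd163 gave the lowest value, r = -0.508 (permutation p = 0.131, adjusted 0.190) and rho = -0.539 (permutation p = 0.115, adjusted 0.217), with r = -0.419 without the 2 mice farthest from the median of Cd68.

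Genes outside the set with the most similar pattern were named by their Pearson correlation over the 10 mice, as a description without a test, since they were picked from 13841 genes. Those most like Vcam1 were Kcnj10 (0.943), Uqcrc2 (0.939) and Slc40a1 (0.937), the last being ferroportin, which exports iron from cells. Without wild-type replicate 1 these correlations were 0.793, 0.737 and 0.735. Those most like Mrc1 were Axl (0.909), a receptor for dying cells, Cd5l (0.887), a secreted macrophage protein, and Ms4a4d (0.886). Those most like Cd163 were Ccr3 (0.926), Il18 (0.877) and Cd5l again (0.877), and those most like C1qa were Igkv1-133 (0.955), Iigp1 (0.934) and Slc7a8 (0.908). Igkv1-133 was listed at 0 in its lowest library and at 14.6 TPM in its highest, and such variable segments share reads.

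Other genes of macrophages showed no call either. Of 12 macrophage identity genes, such as the growth factor receptor Csf1r and the transcription factors Maf and Spi1, 0 passed at an adjusted and 0 at an unadjusted p under 0.05 in limma, with 6 estimates above and 6 below 0 and a median of -0.024. Tyrobp, a signalling adaptor and the most abundant of them, averaged 895 ± 162 TPM in the wild-type and 849 ± 64.1 TPM in the null group (SD, n = 5). Maf, with the smallest p of the list, averaged 18.2 ± 1.12 and 16.4 ± 1.53 TPM (SD, n = 5, difference -0.14, SE 0.0941, exact permutation p = 0.0714). Of 11 scavenger genes of resident macrophages, 9 were tested and 0 passed either threshold, with 7 estimates above 0 and a median of 0.23, which was 0.14 without wild-type replicate 1. Fcna, a ficolin and the most abundant of these, averaged 54.4 ± 22.1 and 71.3 ± 14.4 TPM (SD, n = 5, exact permutation p = 0.206), with its lowest value, 20.7 TPM, in wild-type replicate 1. Macrophage genes went both ways in that mouse. Axl, Cd5l and Spi1 were also lowest there, while Stab1 was highest there, at 59.0 TPM. Csf1r, at 96.3 TPM in that mouse, ranked 9 from the lowest of the 10 mice. Lyve1, with the smallest p, averaged 1.35 ± 0.299 and 2.42 ± 1.15 TPM (SD, n = 5, difference 0.48, SE 0.225, exact permutation p = 0.0794). Timd4 and Marco, also in that list, stayed below the filter.

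Among 9 genes of haem and iron recycling, 8 estimates were above 0 and the median was 0.12. Both genes with an unadjusted p below 0.05, 2 of the 9, were higher in null mice, and 0 passed adjustment. Of all 13841 genes tested, 592 were higher at that threshold. The haem transporter Slc48a1 lay between 75.6 and 107 TPM in wild-type and between 98.6 and 117 TPM in null mice (n = 5 each, difference 0.27, SE 0.104, limma adjusted p = 0.369, exact permutation p = 0.0397). The other was the metal transporter Slc11a1, at 21.5 to 38.9 TPM in wild-type and 31.1 to 39.0 TPM in null mice. Without wild-type replicate 1, 0 of the 9 had an unadjusted p under 0.05 and their median was 0.035. Ftl1, the ferritin light chain, was the most abundant at 2915 ± 198 and 3014 ± 228 TPM (SD, n = 5).

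C3, the central component of complement, averaged 158 ± 40.7 TPM in the wild-type and 179 ± 81.7 TPM in the null group (SD, n = 5, exact permutation p = 0.770). A list of ligands and growth factors that act on or through macrophages gave 0 of 7 at an unadjusted p under 0.05. Hp, haptoglobin, measured 542 ± 138 and 548 ± 127 TPM, and Csf1, the growth factor of macrophages and osteoclasts, 24.1 ± 6.82 and 18.3 ± 5.07 TPM (SD, n = 5, difference -0.37, SE 0.213, exact permutation p = 0.159).

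The lists of other cells that share the tissue or the lineage are given beside these counts. Over all 13841 genes tested, 592 were higher and 1011 lower at an unadjusted p under 0.05 in limma. Without wild-type replicate 1 it was 529 and 614 of 13758. That split depended on scaling, and the list counts are given for the values as deposited only. Osteoclasts, which arise from the same precursors as macrophages, had 7 of 7 genes tested lower at an unadjusted p under 0.05 and 0 after adjustment, with a median of -0.96 and a summed level of 1438 to 3252 TPM in wild-type and 944 to 1940 TPM in null mice. Acp5 averaged 933 ± 370 and 428 ± 224 TPM, and Atp6v0d2 47.5 ± 12.8 and 26.7 ± 5.73 TPM (SD, n = 5, exact permutation p = 0.0397 and 0.0159). Red cell genes had 7 of 7 higher at an unadjusted p under 0.05 and 0 after adjustment, with a median of 0.51 and sums of 1197 to 2233 and 2077 to 2783 TPM. Monocyte genes had 1 of 5 lower at an unadjusted p under 0.05, Cd14, and a median of 0.017. Without wild-type replicate 1, 4 of the osteoclast genes and 5 of the red cell genes had an unadjusted p under 0.05. Bone-forming cells and osteocytes had 7 of 8 genes lower at that threshold, chondrocytes 4 of 6 and B cells 2 of 6, while neutrophil genes (9) and synovial fibroblast genes (7) had 0, and none of these lists had a gene past adjustment. Without wild-type replicate 1 these counts were 3 of 8, 3 of 6 and 0 of 6 lower, the synovial fibroblast list had 1 higher, and the monocyte list had 0. Whether the macrophage genes differ from these lists in their response was not tested, and their part in the values of Cd68, which osteoclasts also express, was not tested.

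Sources of Vcam1 and Mrc1 other than macrophages gave these values. Of 7 endothelial genes, 2 were lower and 0 higher at an unadjusted p under 0.05, (1 lower without wild-type replicate 1), with a median of -0.21 and sums of 91.8 to 109 TPM in wild-type and 67.2 to 99.7 TPM in null mice. Emcn, the one with the smallest p, averaged 19.1 ± 3.80 and 13.1 ± 2.36 TPM (SD, n = 5, difference -0.51, SE 0.159, limma adjusted p = 0.319). Of 6 marrow stromal genes, 0 had an unadjusted p under 0.05, and Cxcl12, the most abundant, averaged 765 ± 121 and 700.5 ± 107 TPM (SD, n = 5). For dendritic cells, which also make Clec10a, 1 of 5 genes was higher at an unadjusted p under 0.05, Siglech, at 12.4 ± 2.76 and 17.1 ± 3.86 TPM (SD, n = 5, exact permutation p = 0.0794). Each of these lists had 0 genes past adjustment, and their part in the macrophage genes was not tested.

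**Figure D5:**
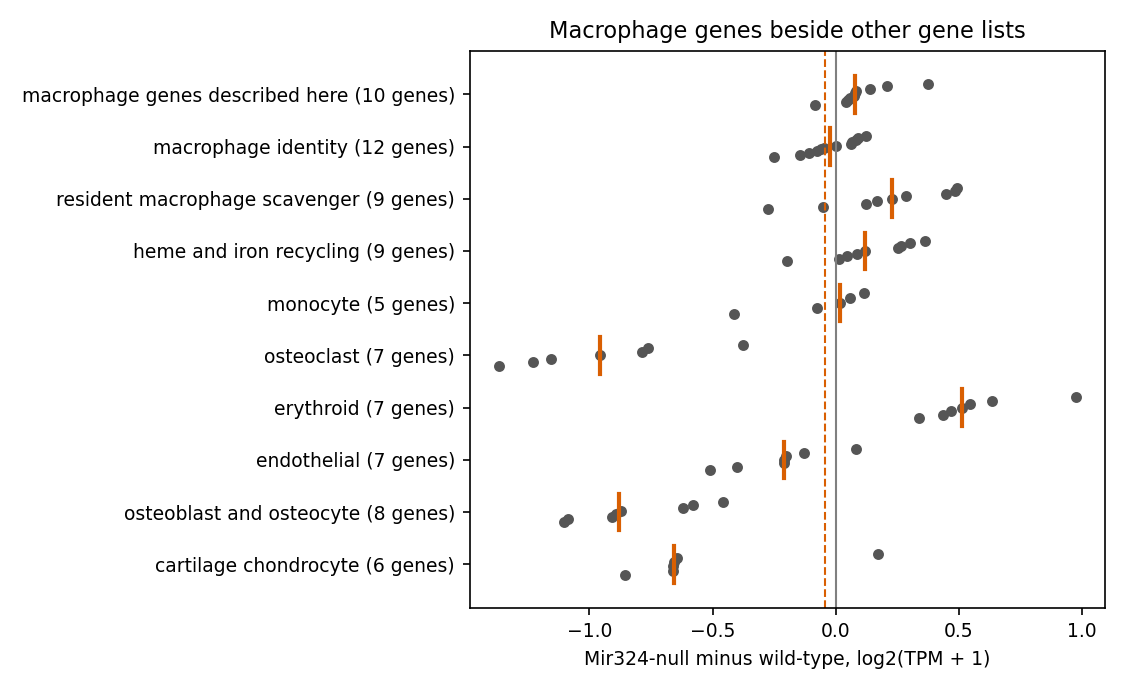
Difference between genotypes on the log2(TPM + 1) scale for each gene tested (points) of the 10 macrophage genes and 9 other lists, with each list's median as a bar and the median of all genes as a dashed line. The macrophage genes lie between -0.082 and 0.38, while the osteoclast genes have a median of -0.96 and the erythroid (red cell) genes one of 0.51.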

How the data were processed

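The data are 10 RNA sequencing libraries, 1 per mouse, from 5 wild-type and 5 Mir324-null mice. The authors deposited a table of TPM values per Ensembl mouse transcript (116912 transcripts, each column summing to 1000000), made with kallisto per the submitters' processing notes, which also name DESeq2 and the build GRCh38. GRCh38 is a human build while the identifiers are of mouse, so coordinates here are those of GENCODE M21 (GRCm38). The index and strand use are not given in the sources used here, and depth is unknown. Identifiers were matched without version numbers (115440 matched) and TPM summed per gene. The 10 genes and the lists were chosen with earlier results of these data known. Genes averaging 1 TPM or more were compared with limma 3.58.1 in R 4.3.3 (trend on mean expression, Benjamini-Hochberg adjustment, threshold 0.05) on log2(TPM + 1), with no covariate. For single genes, exact permutation tests (two-sided) over the mice were added. Correlations used 100000 permutations, adjusted over 45 pairs. Of each list, the text names the most abundant gene and the one with the smallest p, and others where a count is small; some results on list genes are not reported here. The fit was tested on simulated data. Python 3.11.15 with numpy 2.4.6, pandas 2.3.3, scipy 1.17.1 and matplotlib 3.10.9 did the rest. Alternatives were another pseudocount (0.1), other filters (none, or a mean of 5 TPM), other scalings, no trend, a replicate block and leaving out each mouse.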

Additional observations from a re-analysis of the deposited data

Results flagged for a closer look

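Among the 20 sets of 5 mice formed by 10 genes and 2 genotypes, a single mouse stood far from the others of its genotype in 2. There, its gap to the nearest mouse exceeded 0.71 of the range of the set on log2(TPM + 1). Chance marks about 1 set in 20 if values are normal and sets independent, but these sets share mice. The gap was 0.958 of the range for Cd163 and 0.748 for Clec10a, the latter near the cut. Cd163 was at 3.65 TPM in null replicate 1, while the other null mice lay between 10.2 and 10.6 TPM. Clec10a was at 8.43 TPM in null replicate 4, while the other null mice lay between 13.1 and 15.2 TPM.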

How the results depend on the processing

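No alternative gave any of the 10 genes an adjusted p under 0.05. Over the replicates left out in turn, the number of genes called among all tested lay between 0 and 1, the number of the 10 macrophage genes with an unadjusted p under 0.05 between 0 and 1 (Cd163 without null replicate 1), and the number with an estimate above 0 between 3 (with wild-type replicate 1 left out) and 10 (with wild-type replicate 2 left out). The differences then ranged from -0.020 to 0.18 for Adgre1, -0.14 to 0.027 for Cd68, -0.0086 to 0.17 for C1qa, -0.016 to 0.15 for C1qb, -0.021 to 0.14 for C1qc, -0.0017 to 0.15 for Mrc1 and -0.091 to 0.17 for Vcam1. Those of Cd163, Clec10a and Spic stayed above 0, from 0.21 to 0.64, 0.061 to 0.29 and 0.022 to 0.35. Among the other settings only Cd68 changed sign, to 0.0074 when rescaled without haemoglobin genes. The share of lower genes among those with an unadjusted p under 0.05 was 63.1% as deposited, 50.4% after median ratio scaling, 51.2% after quantile normalization and 32.4% without haemoglobin genes. Same-numbered mice of the 2 genotypes did not deviate together over all genes tested (correlations between -0.144 and 0.0564). Low correlations of this kind cannot exclude that the numbers pair the mice. For Cd163, low in replicate 1 of both genotypes, the replicate block gave an SE of 0.202 in place of 0.325. Its limma p with the block was 0.0992 and the limma adjusted p 0.656. The replicate block gave 0 genes past adjustment, 1168 in place of 1603 at an unadjusted p under 0.05, 0 of the 10 genes, and 9 estimates above 0. Unknown depth limits what can be said of the low genes.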
